A study of Mus musculus with 8 samples.

Results

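MyoD, the master regulator of skeletal muscle, and NeuroD2, a driver of neuronal differentiation, were set against each other in the same cells. The comparison used 2 of the 8 libraries of the series, 1 from mouse P19 cells transduced with MyoD and 1 from P19 cells transduced with NeuroD2, and covered all genes of the count table. P19 is an embryonal carcinoma line, a stem-like tumour line that can form neurons or muscle in culture. The third library used beside them, as a level, came from P19 cells transduced with GFP. All 3 cultures carried lentivirus, were infected with polybrene in growth medium and were then moved to Neurobasal medium with B27, a neuronal medium, so that the MyoD and GFP cultures were also kept in conditions made for neurons. The virus dose (multiplicity of infection) of these 3 cultures and the number of days until harvest are not stated in the labels, and RNA came from RNeasy or Trizol without a label saying which library had which. The other 5 libraries carried a MyoD chimera holding the basic helix-loop-helix domain of NeuroD2, or its WC and WCS mutants, some at a multiplicity of infection of 100.

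MyoD and NeuroD2 are basic helix-loop-helix (bHLH) proteins. Such factors pair with broadly present E-proteins and bind E-boxes, short DNA elements of the form CANNTG. MyoD favours the form CAGGTG, NeuroD2 the form CAGATG, and both also bind the palindrome CAGCTG. Each starts a cascade of further factors that ends in a contractile muscle cell or a neuron. The study asked how far binding-site choice sets the lineage, and the head-to-head comparison gives the distance between the 2 programs in 1 cell background.

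The MyoD library held 27754554 counts and the NeuroD2 library 27604056. Of 37558 genes in the table, 14758 reached at least 1 CPM (counts scaled to library size) in either library and were compared. Each group was 1 library, so no test between groups was possible. Ratios of CPM are given with exact 95% intervals on the 2 counts, which cover counting error only and not the spread between cultures. In a bulk sample, fewer cells of a type and less RNA per cell cannot be told apart. Myod1, the delivered muscle factor, stood at 296 CPM in MyoD, 0.804 in NeuroD2 and 0.681 in GFP. Neurod2, the delivered neuronal factor, had 0 counts in MyoD, against 179.8 CPM in NeuroD2 and 2.50 CPM in GFP. Per kilobase of exon the delivered genes stood at 159 CPM for Myod1 in its own library and 57.2 CPM for Neurod2 in its own. These counts do not separate the viral from the cell's own transcript.

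Most genes lay close together. In all, 77.0% of the 14758 genes were less than 2-fold apart, and the median difference was -0.00 on the log2(CPM + 0.5) scale, with the 10th percentile at -1.33 and the 90th at 0.94. A call needed a difference of 4-fold or more on that scale and a level of 5 CPM or more on the higher side. The rule called 410 genes higher in MyoD, which is 2.78% of those compared, and 686 higher in NeuroD2, which is 4.65%. Together this is 7.43%. The 410 genes held 5.75% of the counts of the MyoD library and 0.481% of those of NeuroD2. The 686 genes held 4.57% of the counts of NeuroD2 and 0.436% of those of MyoD. At 64-fold or more on that scale, with no set minimum level, 63 genes were higher in MyoD and 26 in NeuroD2. At 16-fold or more they were 148 and 165. The 0.5 CPM added on that scale keeps genes of low level from reaching 64-fold. Called genes had a median level on their higher side of 43.1 CPM in MyoD and 27.4 CPM in NeuroD2. The largest differences on this scale thus lay more often on the muscle side, and the larger number of called genes on the neuronal side.

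**Figure D1:**
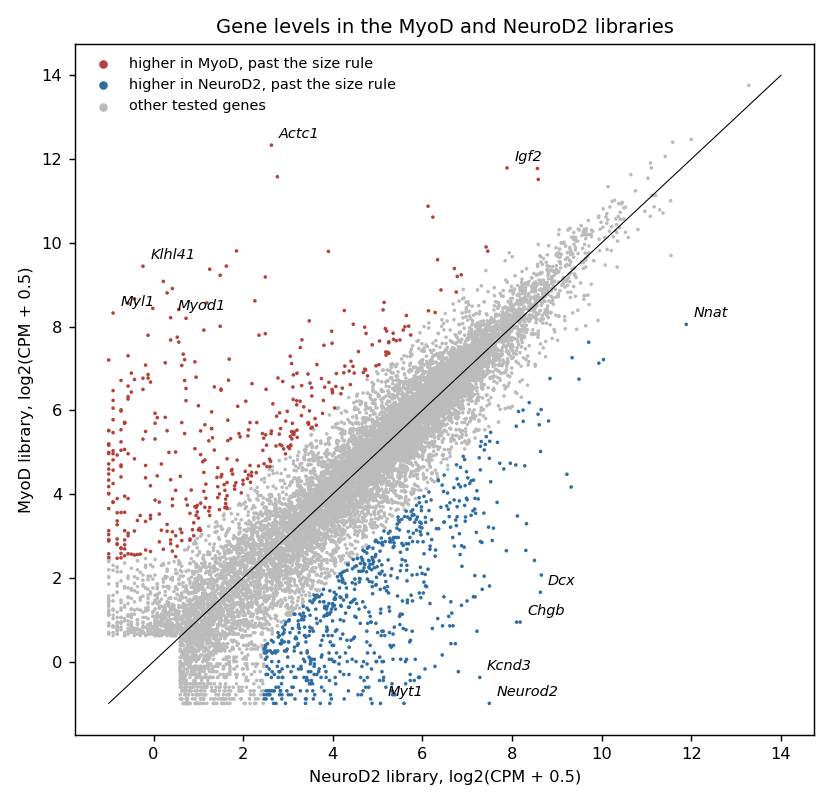
Level of each of the 14758 compared genes in the NeuroD2 library (x axis) and the MyoD library (y axis), both as log2(CPM + 0.5), with 1 point per gene and the line of equal level. The 410 genes called higher in MyoD lie above the line, led by Actc1 at 5163 CPM, and the 686 called higher in NeuroD2 lie below it.

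The 4 marker genes were set for this comparison, so their direction is a description and no support. Actc1, Klhl41 and Kcnd3 were among the 12 genes per side with the highest interval bound. Actc1, the cardiac alpha-actin that embryonic skeletal muscle also makes, stood at 5163 CPM in MyoD, 5.69 in NeuroD2 and 42.3 in GFP, 907-fold (95% interval 778 to 1064) higher in MyoD. Klhl41, a kelch protein of the sarcomere, stood at 695 CPM in MyoD, 0.349 in NeuroD2 and 0.584 in GFP, a ratio of 1989.8-fold (95% interval 1082 to 4150.0). On the other side Kcnd3, the pore subunit of an A-type potassium channel, stood at 0.269 CPM in MyoD, 155 in NeuroD2 and 0.900 in GFP, 577-fold (95% interval 279.8 to 1436) higher in NeuroD2. Myt1, a zinc-finger factor of newly formed neurons, had 0 counts in MyoD, 33.0 CPM in NeuroD2 and 0.146 CPM in GFP. Against a floor of 3 counts per library, and at the lower 95% bound, Myt1 was at least 97.7-fold higher in NeuroD2. By the same reckoning Neurod2 itself was at least 534-fold higher. Outside MyoD, the highest level in the other 7 libraries was 690.0 CPM for Actc1 and 39.8 CPM for Klhl41, both in libraries of the chimera, whereas Myt1 reached 35.2 CPM in the WCS mutant at the labelled dose of 100, close to its NeuroD2 level.

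E-boxes differ in their 2 central bases, and promoters of genes at the ends of the comparison are shown with the 3 E-boxes named above in capitals, on either strand. Each is the 250 bases before the RefSeq gene start on the gene's own strand, from build GRCm38.p6. They are Klhl41 (chr2:69669870-69670119, plus strand), Chrna1 (chr2:73580339-73580588, minus strand) and Actc1 (chr2:114052876-114053125, minus strand) from the muscle side, and Kcnd3 (chr3:105451640-105451889, plus strand) and Nhlh1 (chr1:172057597-172057846, minus strand) from the neuronal side.
Klhl41: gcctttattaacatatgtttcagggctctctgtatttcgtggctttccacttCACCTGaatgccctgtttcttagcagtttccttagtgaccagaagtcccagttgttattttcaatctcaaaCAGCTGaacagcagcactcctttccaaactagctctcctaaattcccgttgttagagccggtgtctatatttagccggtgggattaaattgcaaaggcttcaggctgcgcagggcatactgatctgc
Chrna1: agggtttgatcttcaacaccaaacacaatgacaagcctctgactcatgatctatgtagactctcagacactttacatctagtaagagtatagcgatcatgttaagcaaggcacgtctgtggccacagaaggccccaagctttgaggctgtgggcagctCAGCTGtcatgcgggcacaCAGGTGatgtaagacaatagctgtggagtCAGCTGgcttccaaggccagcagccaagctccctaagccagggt
Actc1: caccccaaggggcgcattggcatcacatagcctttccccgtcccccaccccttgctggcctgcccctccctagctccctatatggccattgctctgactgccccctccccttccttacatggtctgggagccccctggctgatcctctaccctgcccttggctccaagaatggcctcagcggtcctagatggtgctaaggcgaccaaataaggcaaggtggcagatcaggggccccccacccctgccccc
Kcnd3: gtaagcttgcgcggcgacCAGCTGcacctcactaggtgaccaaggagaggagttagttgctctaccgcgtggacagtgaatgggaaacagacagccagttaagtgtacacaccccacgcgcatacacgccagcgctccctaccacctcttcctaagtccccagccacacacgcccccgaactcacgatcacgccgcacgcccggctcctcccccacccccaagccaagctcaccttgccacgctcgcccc
Nhlh1: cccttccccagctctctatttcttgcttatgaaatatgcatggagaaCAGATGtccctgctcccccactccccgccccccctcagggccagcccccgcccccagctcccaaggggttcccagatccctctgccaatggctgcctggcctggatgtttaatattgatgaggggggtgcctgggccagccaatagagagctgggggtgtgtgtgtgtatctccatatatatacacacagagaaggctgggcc
The Klhl41 promoter held the MyoD form CAGGTG, read on the opposite strand, with its first base 198 bases before the start, and the palindrome at 127 bases. Chrna1 held the palindrome at 92 and 44 bases and the MyoD form at 73 bases. Actc1 held none of the 3 in this window. Kcnd3 held the palindrome at 232 bases, and Nhlh1 held the NeuroD2 form at 203 bases. Promoters of 13 genes were looked at in this way, and the ones printed were chosen after the matches were seen. On the MyoD side 5 of 8 held at least 1 of the 3 hexamers, and Actc1, Myog and Cdh15 held none. On the NeuroD2 side 2 of 5 did, and Neurod1, Dcx and Myt1 held none. These matches are letters in a sequence, not binding sites.

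Among the E-box hexamers, the shares of promoters differed most between gene sets for CAGCTG and least for CAGATG. RefSeq listed promoters for 275 of the 410 genes higher in MyoD (373 promoters), 464 of the 686 higher in NeuroD2 (622 promoters) and 10560 of the compared genes (13582 promoters). CAGCTG occurred in 23.6% of promoters on the MyoD side, 17.4% on the NeuroD2 side and 12.4% of all. CAGGTG occurred in 20.9%, 18.7% and 15.7%. CAGATG occurred in 11.8%, 12.5% and 9.87%. The TATA element TATAAA, which is no E-box, occurred in 12.1%, 7.56% and 6.25%. Promoters of 1 gene can overlap, and the shares were not tested. Among genes at least 8-fold higher in MyoD, the shares were 29.7% for CAGCTG, 25.7% for CAGGTG, 12.9% for CAGATG and 14.9% for TATAAA. Among genes at least 8-fold higher in NeuroD2, they were 16.4%, 18.8%, 14.5% and 9.09% in the same order.

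The contractile apparatus made up the muscle end of the comparison. Of 67 listed sarcomere genes, 61 were measured, 54 were called higher in MyoD and 1 higher in NeuroD2. Their median difference was 6.26 on the log2 scale, against -0.00 for all compared genes. Of all compared genes 2.78% were called higher in MyoD and 4.65% higher in NeuroD2, the background for this and every later list count. Together they took 1.98% of all counts in MyoD and 0.0612% in NeuroD2. Myh3, whose product is the myosin heavy chain of embryonic fibres, was found at 3060.4 CPM in MyoD, 6.29 in NeuroD2 and 0.511 in GFP, 487-fold (95% interval 420.5 to 566) higher in MyoD. Myh7, the slow and cardiac beta-myosin, stood at 346 CPM in MyoD and 0.489 CPM in NeuroD2. Myl1, a fast-fibre myosin light chain, had 1 count in NeuroD2 and stood at 320.0 CPM in MyoD, a ratio of 9159.7-fold (95% interval 1644 to 361832). The thin filament followed. Tnni1, the slow troponin I, stood at 375 CPM in MyoD, 0.175 in NeuroD2 and 0.0973 in GFP, and Tnnt2, the cardiac and embryonic troponin T, at 446 CPM in MyoD, 0.734 in NeuroD2 and 0.195 in GFP. Tpm2, beta-tropomyosin, differed less, at 1878 CPM in MyoD, 69.4 in NeuroD2 and 79.1 in GFP, a ratio of 27.1-fold (95% interval 25.9 to 28.3). Slow, fast and embryonic forms were thus present in the same culture, at levels per kilobase of exon of 505 CPM for Myh3, 154 CPM for Myl1 and 104 CPM for Tnni1 in MyoD.

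Proteins that hold the sarcomere together followed the filaments. Ldb3, a Z-disc protein, stood at 157 CPM in MyoD, 0.175 in NeuroD2 and 1.39 in GFP. Synpo2l, an actin-binding Z-disc protein of heart and skeletal muscle, stood at 540.4 CPM in MyoD, 0.664 in NeuroD2 and 4.13 in GFP, and Mybph, myosin-binding protein H, at 405 CPM in MyoD, 0.245 in NeuroD2 and 0.778 in GFP. Mylk4, a myosin light chain kinase family member, had 1 count in NeuroD2 and stood at 88.2 CPM in MyoD. The sarcomere gene higher in NeuroD2, named after its values were seen, was Nebl, the nebulin relative nebulette, at 0.538 CPM in MyoD, 11.04 in NeuroD2 and 1.51 in GFP. Of the listed genes 6 stayed under 1 CPM in both libraries. Myh3 was also higher in NeuroD2 than in GFP, at a low level. Reads of the clustered myosin heavy chain genes, and of Actc1 and its near-identical paralog Acta1, can be shared between genes in a way that these counts do not resolve.

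Genes that couple the nerve signal to contraction lay mostly on the MyoD side where they were called. Among 29 measured genes of excitation-contraction coupling, 14 were called higher in MyoD and 1 in NeuroD2, with a median of 2.15. Atp2a1, the fast-muscle calcium pump SERCA1, stood at 480.1 CPM in MyoD, 0.838 in NeuroD2 and 1.26 in GFP, 573-fold (95% interval 385 to 894) higher in MyoD. Ryr1, the skeletal calcium release channel, stood at 257 CPM in MyoD, 2.31 in NeuroD2 and 3.26 in GFP, and Jph2, which ties the surface membrane to the calcium store, at 91.4 CPM in MyoD, 1.15 in NeuroD2 and 12.5 in GFP. Sln, the pump inhibitor sarcolipin, had 0 counts in NeuroD2 and in GFP and stood at 36.0 CPM in MyoD, at least 117-fold higher. Ryr3, another ryanodine receptor, went the other way, at 3.95 CPM in MyoD, 23.4 in NeuroD2 and 0.73 in GFP (named after its values were seen).

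Of 11 measured genes of the muscle acetylcholine receptor and its synapse, 7 were called higher in MyoD and 0 higher in NeuroD2, with a median of 4.04. Chrng, the fetal gamma subunit, stood at 214 CPM in MyoD, 0.943 in NeuroD2 and 0.0973 in GFP. Chrna1, the alpha subunit, had 2344 counts in MyoD and 10 in NeuroD2, a ratio of 258-fold (95% interval 139.8 to 538), and Chrnd, the delta subunit, stood at 54.3 CPM in MyoD with 1 count in NeuroD2. Musk, the receptor kinase that gathers these receptors, stood at 86.05 CPM in MyoD, 0.210 in NeuroD2 and 0.535 in GFP. Of 6 measured subunits of the neuronal acetylcholine receptor, 3 were called higher in NeuroD2, namely Chrna3, Chrnb2 and Chrnb4, while Chrna4, Chrna5 and Chrna7 were not called. The alpha subunits were named after their values were seen, and Chrna3 was not called with a pseudocount of 2 CPM. Chrnb2 stood at 2.38 CPM in MyoD, 61.9 in NeuroD2 and 5.13 in GFP, 26.02-fold (95% interval 20.2 to 34.1) higher in NeuroD2, and Chrnb4 at 2.23 CPM in MyoD, 46.5 in NeuroD2 and 1.41 in GFP.

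Cell fusion and surface genes differed by member. Cdh15, muscle cadherin, stood at 581 CPM in MyoD, 5.14 in NeuroD2 and 2.63 in GFP, 113-fold (95% interval 96.2 to 134) higher in MyoD. Mymk, the fusion protein myomaker, stood at 140.1 CPM in MyoD, 0.699 in NeuroD2 and 0.0486 in GFP, and its partner Mymx (myomixer) at 21.6 CPM in MyoD, 2.38 in NeuroD2 and 0.316 in GFP. Mstn, the secreted growth inhibitor myostatin, had 0 counts in NeuroD2 and GFP and stood at 31.4 CPM in MyoD. Over the 24 measured genes of the adhesion and fusion list, 6 were called higher in MyoD and 3 higher in NeuroD2, with a median of 0.28. Of 19 measured dystrophin-complex genes, 5 were called higher in MyoD and 0 in NeuroD2, with a median of 0.76. Sgca, alpha-sarcoglycan, stood at 27.6 CPM in MyoD with 1 count in NeuroD2. Lama2, the laminin chain around muscle fibres, stood at 19.7 CPM in MyoD with 0 counts in NeuroD2.

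Behind the structural genes stood the transcription factors of muscle. Of 27 measured myogenic regulators, 11 were called higher in MyoD and 4 higher in NeuroD2, with a median of 1.81. Myog, myogenin, the bHLH factor of muscle differentiation, stood at 95.1 CPM in MyoD, 0.175 in NeuroD2 and 0.0486 in GFP, 544-fold (95% interval 233 to 1678) higher in MyoD. Mef2c, a MADS-box partner of the myogenic bHLH factors, stood at 392 CPM in MyoD, 4.30 in NeuroD2 and 0.948 in GFP. Pitx3, a homeodomain factor, stood at 64.01 CPM in MyoD, 0.105 in NeuroD2 and 0.316 in GFP, and Vgll2, a cofactor of TEAD proteins, at 43.7 CPM in MyoD with 1 count in NeuroD2. The 4 listed regulators higher in NeuroD2 included, named after their values were seen, Dach1 (1.38 CPM in MyoD and 24.0 in NeuroD2), Eya2 (3.07 and 30.9) and Pax3 (3.11 and 22.2), which are also known from the developing nervous system or sense organs.

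MicroRNA genes also had reads in these poly(A) libraries, which count transcripts at the gene and not mature microRNAs. They were named after their values were seen. Of 52 measured Mir genes, 4 were called higher in MyoD and 1 higher in NeuroD2, where 2.78% and 4.65% of all compared genes were called. Mir206 and Mir133b, neighbours on chromosome 1 and known from skeletal muscle, stood at 7.03 and 21.8 CPM in MyoD, with 0 counts in NeuroD2 and in GFP. The remaining calls on the MyoD side were Mir675 and Mir433. Mir675 stood at 87.0 CPM in MyoD, 15.4 in NeuroD2 and 12.3 in GFP, and Mir433 at 8.14, 0.734 and 0.170 CPM in the same order. Mir124a-1, known from neurons, stood at 0.269 CPM in MyoD, 13.9 CPM in NeuroD2 and 1.97 CPM in GFP. The mature muscle forms, from RefSeq on GRCm38.p6, are shown because their seeds (bases 2 to 8, in capitals) differ. The seed is the part of a microRNA that pairs with its targets.
mmu-miR-206-3p: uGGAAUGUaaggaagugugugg
mmu-miR-133b-3p: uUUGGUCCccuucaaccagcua

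A cascade of neuronal bHLH factors opened the NeuroD2 side. Of 12 measured members, 8 were called higher in NeuroD2 and 0 higher in MyoD, with a median of -4.29. Neurod1, the close relative of the delivered factor, stood at 0.346 CPM in MyoD, 111 in NeuroD2 and 0.608 in GFP, 321-fold (95% interval 169 to 704) higher in NeuroD2. Nhlh1, a factor of newborn neurons, stood at 0.845 CPM in MyoD, 99.1 in NeuroD2 and 0.389 in GFP, and Nhlh2 at 0.115 CPM in MyoD, 25.1 in NeuroD2 and 0 in GFP. Olig2, the bHLH factor of motor neuron and oligodendrocyte progenitors, stood at 0.192 CPM in MyoD, 48.9 in NeuroD2 and 0.219 in GFP. Zinc-finger and homeodomain factors followed, with 23 of 49 called higher in NeuroD2, 0 higher in MyoD and a median of -2.31. Onecut2 stood at 5.80 CPM in MyoD, 317 in NeuroD2 and 0.997 in GFP, St18, a relative of Myt1, at 0.384 CPM in MyoD, 66.1 in NeuroD2 and 0.340 in GFP, and Scrt1, a neuronal zinc-finger repressor, at 28.3 CPM in NeuroD2 with 1 count in MyoD. Uncx, a homeodomain factor outside the lists but within the naming rule, stood at 0.0768 CPM in MyoD, 41.4 in NeuroD2 and 0.0486 in GFP.

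Among the neuronal lists the cytoskeleton took the largest share of counts. Of 36 measured genes, 23 were called higher in NeuroD2 and 0 higher in MyoD, with a median of -2.63, and the list took 1.53% of counts in NeuroD2 against 0.314% in MyoD. Dcx, doublecortin, a microtubule protein of migrating neurons, stood at 2.65 CPM in MyoD, 397 in NeuroD2 and 0.681 in GFP, 149.8-fold (95% interval 118 to 193) higher in NeuroD2. Map2, which binds dendritic microtubules, stood at 17.5 CPM in MyoD, 639 in NeuroD2 and 25.5 in GFP, and Ina, the neurofilament relative alpha-internexin, at 4.84 CPM in MyoD, 362 in NeuroD2 and 5.98 in GFP. Mapt, tau, stood at 0.538 CPM in MyoD, 40.1 in NeuroD2 and 0.997 in GFP. Tubb3, neuronal beta-tubulin, had a higher background, at 148 CPM in MyoD, 1054 in NeuroD2 and 110.3 in GFP, a ratio of 7.13-fold (95% interval 6.90 to 7.38). Tuba1a, at 829 CPM in MyoD, 2994 in NeuroD2 and 1638 in GFP, was 3.61-fold (95% interval 3.56 to 3.66) higher in NeuroD2 and so just short of the call. Reads of near-identical tubulin genes can be shared.

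**Figure D2:**
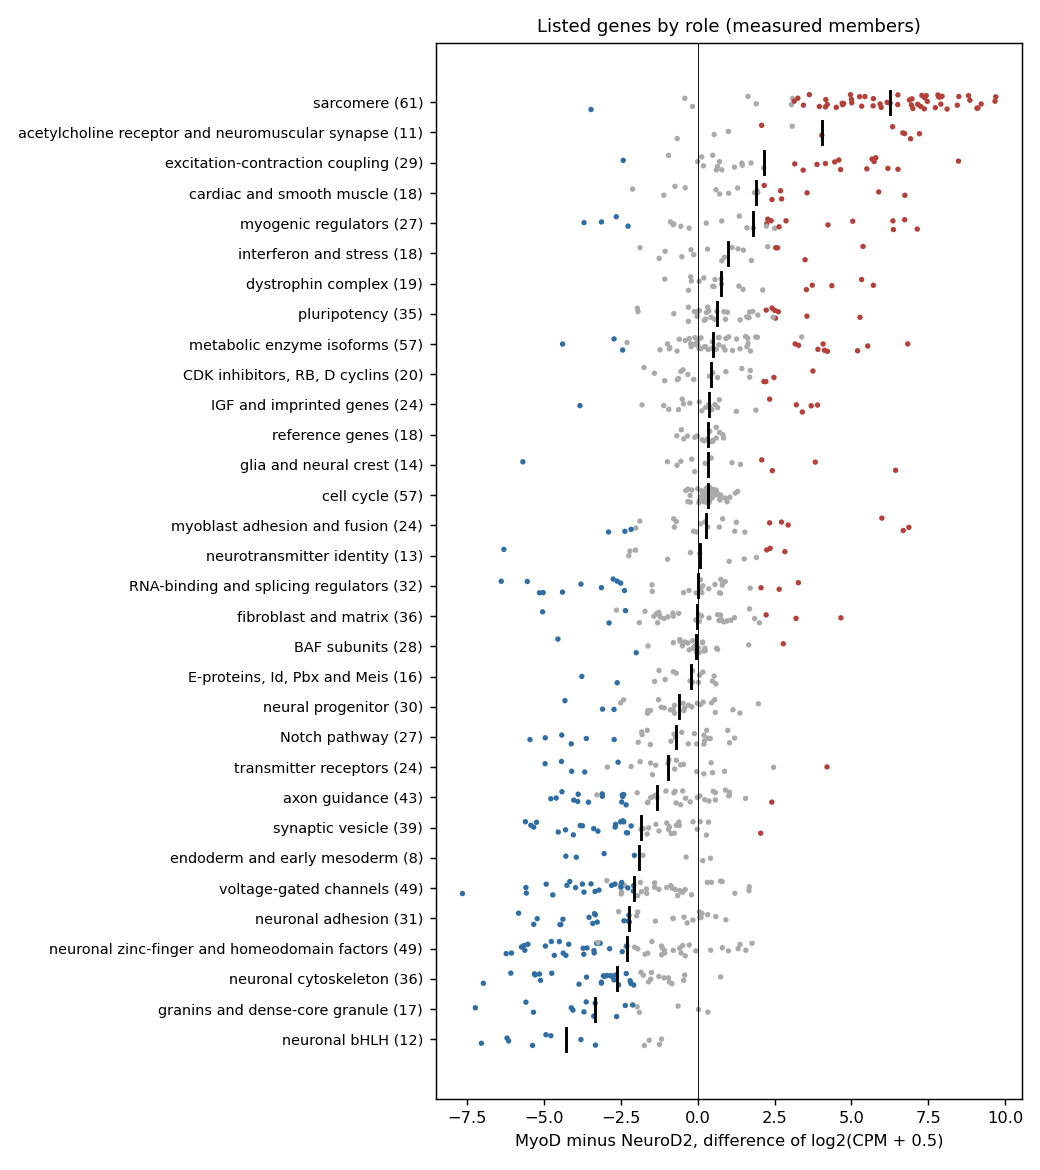
Difference between the MyoD and NeuroD2 libraries on the log2(CPM + 0.5) scale for each measured member of the 32 gene lists (points, with the number measured in brackets), red for genes called higher in MyoD, blue for genes called higher in NeuroD2 and grey for the rest, with the list median as a black bar. The sarcomere list has a median of 6.26 at the top and the neuronal bHLH list a median of -4.29 at the bottom, while no cell cycle or reference gene is called.

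Secretory granule and synaptic vesicle genes lay on the NeuroD2 side where called, with 1 exception. Of 17 measured granin and dense-core granule genes, 12 were called higher in NeuroD2 and 0 higher in MyoD, with a median of -3.34. Dner, called higher in NeuroD2, was also counted in the Notch list. Chgb, chromogranin B, stood at 1.42 CPM in MyoD, 289.9 in NeuroD2 and 0.851 in GFP, 204-fold (95% interval 148 to 290.1) higher in NeuroD2, and Scg3, secretogranin III, at 2.42 CPM in MyoD, 141 in NeuroD2 and 3.16 in GFP. Pcsk2, a prohormone convertase, stood at 0.154 CPM in MyoD, 26.1 in NeuroD2 and 0.146 in GFP. Of 39 synaptic vesicle genes 19 were called higher in NeuroD2 and 1 in MyoD, with a median of -1.85. Syp, the vesicle protein synaptophysin, stood at 2.80 CPM in MyoD, 161 in NeuroD2 and 3.84 in GFP, Syt4, a synaptotagmin, at 0.883 CPM in MyoD, 52.1 in NeuroD2 and 0.632 in GFP, and Rab3c at 0.0768 CPM in MyoD, 24.5 in NeuroD2 and 0.122 in GFP. The exception was Doc2a, a calcium sensor of vesicle release, at 113 CPM in MyoD, 26.9 in NeuroD2 and 55.7 in GFP (named after its values were seen). Doc2a was not called under total-count scaling or with a pseudocount of 2 CPM.

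Few genes of transmitter identity were measured. Of 35 listed genes 13 were measured, and 1 of them (7.69%) was called higher in NeuroD2, against 4.65% of all compared genes. With no minimum level 4 were called higher in NeuroD2, the others being Chat, Cartpt and Sst. The gene called with the minimum level was Slc17a6, the vesicular glutamate transporter VGLUT2, at 0.269 CPM in MyoD, 60.6 in NeuroD2 and 0.122 in GFP. It was 226-fold (95% interval 109 to 562) higher in NeuroD2. On the MyoD side 3 (23.1%) were called, against 2.78% of all compared genes. Npy, neuropeptide Y, stood at 23.5 CPM in MyoD, 2.86 in NeuroD2 and 74.3 in GFP, so that its level was highest in GFP and lowest in NeuroD2. Calca, the calcitonin gene, stood at 11.6 CPM in MyoD, 1.85 in NeuroD2 and 7.49 in GFP, and Ddc, aromatic amino acid decarboxylase, at 21.1 CPM in MyoD, 4.05 in NeuroD2 and 3.96 in GFP. Neither Calca nor Ddc was called with a pseudocount of 2 CPM. Of 24 measured transmitter receptor genes, 5 were called higher in NeuroD2 and 1 in MyoD, with a median of -0.96. Gabbr2, a GABA-B receptor subunit, stood at 0.806 CPM in MyoD, 40.5 in NeuroD2 and 0.438 in GFP. The receptor gene on the MyoD side was Grin2a, an NMDA receptor subunit, at 11.3 CPM in MyoD, 0.140 in NeuroD2 and 0.827 in GFP.

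Ion channels and surface molecules completed the neuronal side. Of 49 measured voltage-gated channel genes, 20 were called higher in NeuroD2 and 0 in MyoD, with a median of -2.08. Beside Kcnd3, Kcnh1, a potassium channel of the ether-a-go-go family, stood at 0.538 CPM in MyoD, 49.6 in NeuroD2 and 0.486 in GFP, and Cacna1c, an L-type calcium channel, at 2.42 CPM in MyoD, 88.7 in NeuroD2 and 5.45 in GFP. Of 31 neuronal adhesion genes 15 were called higher in NeuroD2 and 0 in MyoD, with a median of -2.23. L1cam stood at 1.31 CPM in MyoD, 102 in NeuroD2 and 3.58 in GFP and Cadm3 at 3.61 CPM in MyoD, 166 in NeuroD2 and 8.93 in GFP. Of 43 axon guidance genes 14 were called higher in NeuroD2 and 1, Ephb3, in MyoD, with a median of -1.33. Nrp2, a semaphorin receptor, stood at 4.34 CPM in MyoD, 118 in NeuroD2 and 8.90 in GFP, and Robo2, a Slit receptor, at 2.11 CPM in MyoD, 71.4 in NeuroD2 and 1.09 in GFP. Ephb3, an ephrin receptor named after its values were seen, stood at 118 CPM in MyoD, 21.8 in NeuroD2 and 72.1 in GFP.

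**Figure D3:**
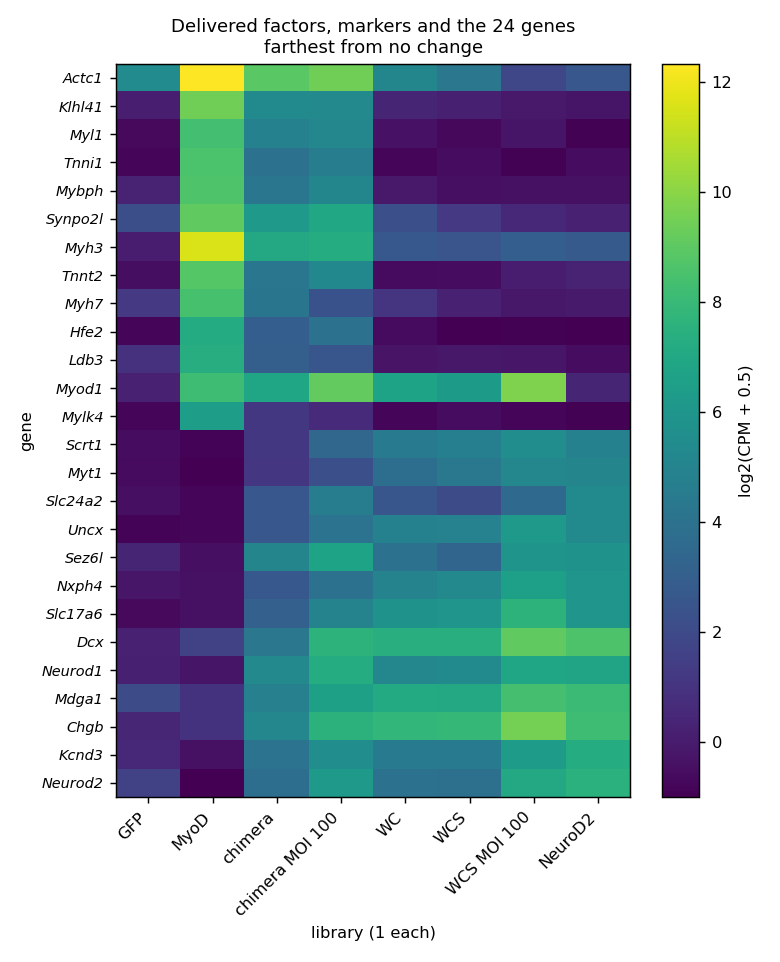
Level of the delivered factors, the 4 markers and the 12 genes on each side that rank highest by the lower 95% bound of their ratio, as log2(CPM + 0.5) by colour, in each of the 8 libraries (1 library per column). The muscle genes from Actc1 to Mylk4 are brightest in MyoD, apart from the delivered factor Myod1. Myod1 is brightest in the WCS library at 100, at 857 CPM against 296 CPM in MyoD. The neuronal genes from Scrt1 to Kcnd3 are bright in NeuroD2 and, at differing levels, in the chimera and mutant libraries.

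Within several gene families the shares of the members differed between the 2 libraries. Of 57 measured metabolic enzyme isoforms 9 (15.8%) were called higher in MyoD and 3 (5.26%) higher in NeuroD2, with a median of 0.51. Over all compared genes the shares were 2.78% and 4.65%, so the NeuroD2 share was near the background. Fabp7, called higher in NeuroD2, was also counted in the neural progenitor list. Families were chosen after values were seen, and shares are of the family's summed CPM per kilobase of exon. Muscle enolase, Eno3, made up 50.3% of enolase in MyoD, 6.79% in NeuroD2 and 6.82% in GFP. Muscle glycogen phosphorylase, Pygm, made up 79.1%, 11.2% and 2.69% of its family in the same order. Muscle phosphoglycerate mutase, Pgam2, made up 29.1%, 0.772% and 0.0955%, and the muscle cytochrome oxidase subunit Cox6a2 made up 32.2%, 0.152% and 0.354%. SERCA1 (Atp2a1) made up 57.2% of the calcium pumps in MyoD and 0.402% in NeuroD2. Creatine kinase was an exception in its main form, since the brain form Ckb held 97.5% in MyoD and 98.1% in NeuroD2. The muscle form Ckm was still called higher in MyoD, with 2.28% of the family in MyoD and 0.0771% in NeuroD2. Ckm, named after its values were seen, was not called under total-count scaling or with a pseudocount of 2 CPM.

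Single members of chromatin and RNA-binding families also stood apart. Actl6b, the neuronal BAF53b subunit of the BAF chromatin remodelling complex, stood at 0.307 CPM in MyoD, 18.4 in NeuroD2 and 0.0973 in GFP and made up 11.7% of the BAF53 pair in NeuroD2 and 0.234% in MyoD. Smarcd3, the BAF60c subunit known from muscle, stood at 133 CPM in MyoD, 18.8 in NeuroD2 and 9.70 in GFP and made up 27.7% of the BAF60 family in MyoD and 4.41% in NeuroD2. Of 28 BAF genes 1 (3.57%) was called higher in MyoD and 2 (7.14%) higher in NeuroD2, near the 2.78% and 4.65% of all compared genes. The other was Dpf3, which was not called with a pseudocount of 2 CPM. Among RNA-binding proteins, 11 of 32 were called higher in NeuroD2 and 3 higher in MyoD. Elavl3, a neuronal Hu protein, stood at 9.29 CPM in MyoD, 319.8 in NeuroD2 and 23.8 in GFP and made up 48.0% of the ELAV family in NeuroD2 and 5.61% in MyoD. Srrm4, the regulator of neuronal microexons, stood at 2.23 CPM in MyoD, 127 in NeuroD2 and 2.04 in GFP, and Celf3 at 0.422 CPM in MyoD, 77.3 in NeuroD2 and 0.754 in GFP. The 3 on the MyoD side were Rbm24 (337 and 34.3 CPM in MyoD and NeuroD2), Rbm20 (119 and 18.5) and Celf2 (222 and 53.0), named after their values were seen. Celf2 was not called under total-count scaling.

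**Figure D4:**
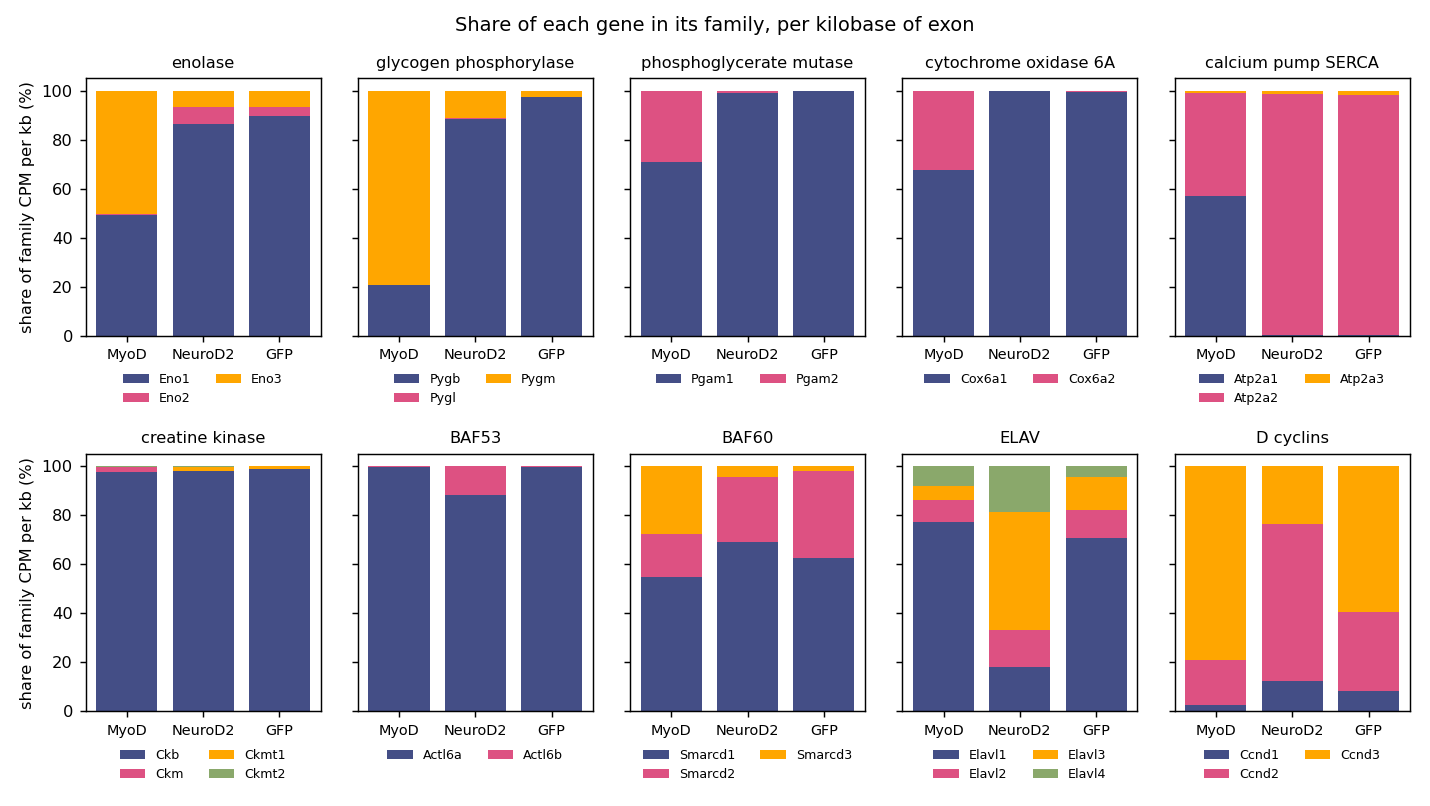
Share of each gene in its family's summed CPM per kilobase of exon (bars, 0 to 100%) in the MyoD, NeuroD2 and GFP libraries, for 10 families. Pygm holds 79.1% of glycogen phosphorylase in MyoD and Elavl3 48.0% of the ELAV family in NeuroD2.

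Notch signalling, which holds neighbouring cells back from becoming neurons, had 6 of 27 measured genes called higher in NeuroD2 and 0 higher in MyoD, with a median of -0.72. Dll4, a Notch ligand, stood at 0.538 CPM in MyoD, 45.3 in NeuroD2 and 1.56 in GFP, Mfng, a Notch-modifying glycosyltransferase, at 6.80 CPM in MyoD, 156 in NeuroD2 and 5.52 in GFP, and Heyl, a Notch target, at 0.499 CPM in MyoD, 30.7 in NeuroD2 and 0.0730 in GFP. Of 16 E-protein, Id, Pbx and Meis genes, 2 (12.5%) were called higher in NeuroD2, against 4.65% of all compared genes. Id2, an inhibitor that binds E-proteins, stood at 7.79 CPM in MyoD, 113 in NeuroD2 and 15.0 in GFP, and Meis3 at 6.11 CPM in MyoD, 40.2 in NeuroD2 and 11.97 in GFP. Neural progenitor genes had 3 of 30 (10%) called higher in NeuroD2 and 0 higher in MyoD, with a median of -0.62. Pax2 stood at 0.499 CPM in MyoD, 19.5 in NeuroD2 and 0.754 in GFP.

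Of 20 measured CDK inhibitors, retinoblastoma family genes and D cyclins, 4 were called higher in MyoD and 0 higher in NeuroD2, with a median of 0.44. Cdkn1a, the p21 inhibitor of cyclin-dependent kinases, stood at 187 CPM in MyoD, 13.5 in NeuroD2 and 8.51 in GFP, 13.9-fold (95% interval 12.6 to 15.5) higher in MyoD. Ccnd3, the D cyclin of differentiating muscle, stood at 956 CPM in MyoD, 171 in NeuroD2 and 319 in GFP and made up 79.2% of D cyclins per kilobase in MyoD against 23.7% in NeuroD2. In NeuroD2 the largest D cyclin share was that of Ccnd2, at 64.1%. Of 57 measured replication and mitosis genes 0 were called in either direction, with a median of 0.32, which stood close to the 0.35 of 18 reference genes. Plk1, a mitotic kinase, stood at 264 CPM in MyoD, 113 in NeuroD2 and 295 in GFP. Ribosomal protein genes, 79 in all, also gave 0 calls, with a median of 0.58 and 8.27% of counts in MyoD against 5.92% in NeuroD2.

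Pluripotency genes, which mark the starting P19 state, were lower in NeuroD2 where they were called. Of 35 measured pluripotency genes 7 were called higher in MyoD and 0 higher in NeuroD2, with a median of 0.62. Gdf3, Lefty1 and Nr0b1 of this list, named after their values were seen, were not called but followed the library split given below. Pou5f1 (Oct4), named after its values were seen, stood at 587 CPM in MyoD, 109 in NeuroD2 and 1227 in GFP, and Utf1 at 42.7 CPM in MyoD, 6.50 in NeuroD2 and 70.0 in GFP, so both were highest in GFP. Fgf5, a growth factor of the primed state, instead stood at 39.3 CPM in MyoD, 0.524 in NeuroD2 and 0.681 in GFP, and Spry4, a feedback inhibitor of FGF signalling, at 51.8 CPM in MyoD, 3.95 in NeuroD2 and 1.90 in GFP, so both were highest in MyoD. Egr1, an immediate early gene, stood at 70.8 CPM in MyoD, 5.83 in NeuroD2 and 4.62 in GFP.

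Growth factor and imprinted genes supplied some of the largest differences in level. Igf2, insulin-like growth factor 2, stood at 3539.9 CPM in MyoD, 237 in NeuroD2 and 184 in GFP, 15.0-fold (95% interval 14.6 to 15.3) higher in MyoD. Peg10, a retrotransposon-derived imprinted gene, stood at 3509 CPM in MyoD, 379 in NeuroD2 and 348 in GFP. Nnat, neuronatin, an imprinted gene of the developing brain, stood at 265 CPM in MyoD, 3792 in NeuroD2 and 128 in GFP, 14.3-fold (95% interval 13.96 to 14.7) higher in NeuroD2, and was the gene with the largest CPM difference on that side. Of 24 measured genes of this list 5 were called higher in MyoD and 1, Nnat, higher in NeuroD2, with a median of 0.38. Outside the lists, Hfe2, the muscle and liver protein hemojuvelin, stood at 147 CPM in MyoD with 0 counts in NeuroD2, at least 479-fold higher.

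Markers of other cell types were given beside these groups, and their part in the results was not tested. Of 18 measured cardiac and smooth muscle genes 7 were called higher in MyoD and 0 higher in NeuroD2, with a median of 1.89 and summed shares of 0.124% and 0.0142% of counts. Acta2, smooth muscle actin, stood at 888 CPM in MyoD, 14.5 in NeuroD2 and 102 in GFP, and Myh6, alpha-myosin of the heart, at 102 CPM in MyoD, 0.454 in NeuroD2 and 0.730 in GFP. Gata4, a zinc-finger factor of heart and endoderm, stood at 6.76 CPM in MyoD, 0.594 in NeuroD2 and 0.876 in GFP and was called higher in MyoD, though not with a pseudocount of 2 CPM. Gata6, named after its values were seen, was also called higher in MyoD, and likewise not with that pseudocount. The cardiac factors Nkx2-5, Tbx5, Hand1 and Hand2 stayed under 1 CPM in both libraries. Fibroblast and matrix genes were split, with 3 of 36 (8.33%) called on each side and a median of -0.01. Igfbp3, an IGF-binding protein, stood at 281 CPM in MyoD, 10.6 in NeuroD2 and 19.5 in GFP, and Postn, periostin, at 0.115 CPM in MyoD, 19.9 in NeuroD2 and 1.46 in GFP. Of 14 measured glia and neural crest genes 4 were called higher in MyoD and 1 in NeuroD2, with a median of 0.34. Erbb3, a neuregulin receptor, stood at 134 CPM in MyoD, 1.05 in NeuroD2 and 19.02 in GFP. Slc1a2, the glutamate transporter GLT-1, stood at 2.995 CPM in MyoD, 180.4 in NeuroD2 and 0.584 in GFP. The other members called higher in MyoD were Foxd3 and, named after their values were seen, Aldh1l1 and Sox8. Aldh1l1 was not called under total-count scaling, and neither Aldh1l1 nor Foxd3 with a pseudocount of 2 CPM. The glial markers Gfap, S100b, Aqp4, Mag and Mog stayed under 1 CPM in both libraries. Endoderm and early mesoderm genes had 8 of 25 measured, of which 4 were called higher in NeuroD2, namely Lhx1, Foxa2, Eomes and Tal1. Lhx1 was also counted in the list of neuronal zinc-finger and homeodomain factors. Eomes and Tal1 were not called with a pseudocount of 2 CPM. Foxa2 stood at 0.307 CPM in MyoD, 12.02 in NeuroD2 and 0.292 in GFP. Of 18 measured interferon and stress genes 4 were called higher in MyoD and 0 higher in NeuroD2, with a median of 0.99. Rsad2, an interferon-induced gene, stood at 24.7 CPM in MyoD, 0.105 in NeuroD2 and 0.122 in GFP. Bst2, another interferon-induced gene, stood at 12.4 CPM in MyoD, 1.71 in NeuroD2 and 17.2 in GFP, so it was highest in GFP, and it was not called with a pseudocount of 2 CPM. Ifit1, Isg15 and Mx1 stayed under 1 CPM in both.

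The GFP library showed which of the 2 levels was near the control. On the log2(CPM + 0.5) scale, GFP lay within 2-fold of NeuroD2 but not of MyoD for 238 (58.0%) of the 410 genes higher in MyoD, and within 2-fold of MyoD for 57 (13.9%). It lay between the 2 for 68, below both for 40 and above both for 7. Of the 686 genes higher in NeuroD2, GFP lay within 2-fold of MyoD for 434 (63.3%) and of NeuroD2 for 71 (10.3%). It lay between for 129, below both for 52 and above both for 0. Both ratios to GFP use the same GFP library, so they are not independent of each other.

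**Figure D5:**
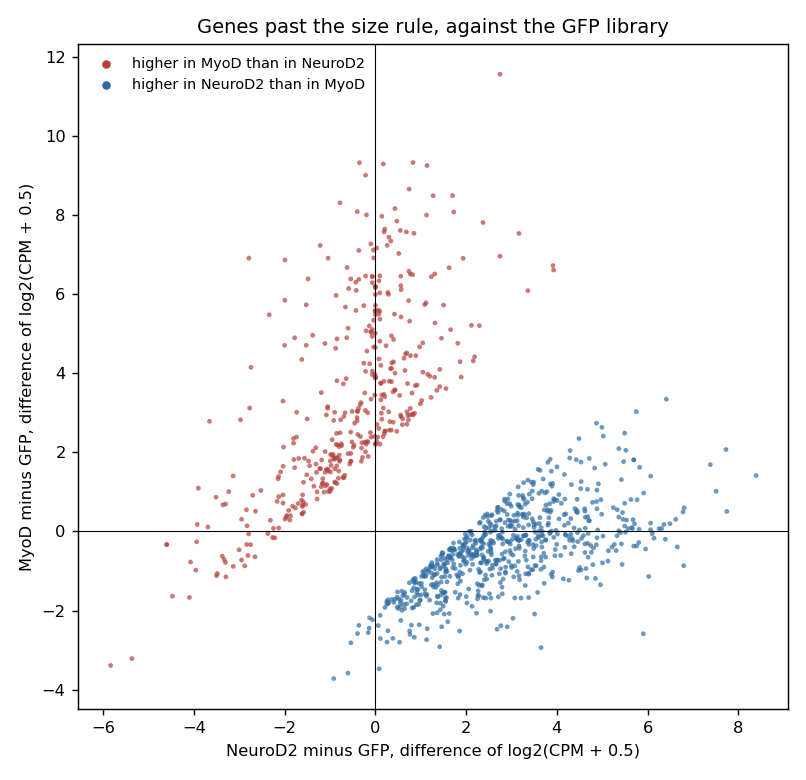
Each called gene plotted by its NeuroD2 minus GFP difference (x axis) and MyoD minus GFP difference (y axis), both on the log2(CPM + 0.5) scale, in red for genes higher in MyoD and blue for genes higher in NeuroD2. Of the red genes 58.0% lie near the vertical line through 0, where NeuroD2 is near GFP, and of the blue genes 63.3% lie near the horizontal line through 0, where MyoD is near GFP.

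The 8 libraries also split in a way that the constructs do not follow, and MyoD and NeuroD2 lay on different sides. Rn7s6, a short noncoding RNA gene, stood at 13.0 to 16.3 CPM in the MyoD, GFP, WC and WCS libraries and at 0.565 to 1.28 CPM in the NeuroD2 library, both chimera libraries and the WCS library at 100. Lars2, a mitochondrial leucyl-tRNA synthetase gene, followed the same split, at 2925 CPM in MyoD, 384 in NeuroD2 and 1725 in GFP. In all, 24 genes were at least 2-fold higher in every library of the first set than in every library of the second, and 14 the other way. Of these, 13 were among the 410 genes called higher in MyoD and 10 were among the 686 called higher in NeuroD2, Heyl and Sez6l included. Without them the calls were 397 and 676. The labels name no batch. Called genes were also set against the other libraries of their own set, as a description, since they were chosen for a high level in the library in question. Within the first set, 378 of the 410 genes (92.2%) were higher in MyoD than in each of the other 3 libraries, against 28.1% of all compared genes, and 257 were at least 4-fold higher. Within the second set, 201 of the 686 genes (29.3%) were higher in NeuroD2 than in each of the other 3, against 16.2% of all compared genes, and 12 were at least 4-fold higher. Those other 3 all carried the NeuroD2 bHLH domain.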

How the data were processed

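RNA was measured in 8 lentivirally transduced P19 cultures, 1 poly(A)-selected library each. The authors deposited raw counts per Ensembl gene. The submitters' processing notes name the mm9 build, TopHat2 2.0.8 and CASAVA 1.8.2. Which counter, gene models and strand setting they used is not given in the sources used here. Reads of overlapping, antisense or near-identical genes may be shared. All 8 library columns were used.

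Counts were scaled to CPM by TMM over the 8 libraries (edgeR 4.0.16, R 4.3.3). Each ratio has a 95% interval from the exact binomial (Clopper-Pearson) bounds on its pair of counts, computed in Python 3.11.15 with scipy 1.17.1. Reads from PCR are not independent molecules, so intervals and the floor of 3 counts per library (0.115 CPM in MyoD, 0.105 CPM in NeuroD2) cover counting error only. A fold against 0 counts is the lower 95% bound against that floor. Symbols and exon lengths came from GENCODE on a later build, matched by identifier for 32850 of 37558 genes (87.5%), and promoter and microRNA sequences came from RefSeq (GRCm38.p6). The steps were tested on simulated counts that held counting error only, with planted 8-fold differences. Such a run checks the code, and not the spread between cultures or calls near the threshold.

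Members of the 32 lists and the settings were chosen with earlier results of these data known. The text names the delivered factors, the 4 markers, the 12 genes per side with the highest interval bound (the end nearer to equal levels), the 10 per side with the largest CPM difference and up to 4 per list with the largest ratio, without unnamed gene models. Other genes are marked where they are named. The alternatives tried were total counts, size factors from DESeq2 1.42.0, TMM over the 2 libraries, other minimum levels, another pseudocount and other fold thresholds. A call that leaves out genes following the Rn7s6 split was chosen after seeing the data. A few genes that this rule selects are not reported here.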

Additional observations from a re-analysis of the deposited data

How the results depend on the processing

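Each group was 1 library, so the spread between cultures is unknown and no result was tested. No paired analysis was possible because each group had 1 library. Scaling changed little: DESeq2 size factors gave 412 calls on the MyoD side and 686 on the NeuroD2 side, TMM over the 2 libraries 408 and 684, and total counts 377 and 750. Total counts moved the median of all genes from -0.00 to -0.14 on the log2 scale, so differences are best read relative to it. A pseudocount of 2 CPM gave 330 and 510, and no minimum level 487 and 813. A minimum of 20 CPM gave 290 and 406. The fold threshold set the counts, which were 231 and 356 at 8-fold and 1028 and 1504 at 2-fold. The 157 genes named by rule were recalculated 628 times in all under other scalings or the other pseudocount. A change of sign was counted for called genes only, and none was seen. Genes at least 4-fold apart could not change sign under shifts this small, so nothing is drawn from this. Listed genes called numbered 150 higher in MyoD and 182 in NeuroD2, and ranged from 115 to 214 and from 123 to 252 over the 8 settings. Of 528 list counts under these settings, totals included, 455 stayed within 1.5 times and 73 did not. Of 341 listed or named genes called, 298 kept their call under the other 3 scalings and the other pseudocount, 42 lost it with the pseudocount of 2 CPM and 5 under total counts. At 8-fold the promoter shares were 25.7% for CAGGTG, 29.7% for CAGCTG and 14.9% for TATAAA on the MyoD side, and 18.8%, 16.4% and 9.09% on the NeuroD2 side.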

Other observations

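Some genes outside the lists and the naming rule stood far apart between the libraries and were chosen after their values were seen. On the MyoD side, Fgf6, a growth factor of developing muscle, stood at 74.9 CPM in MyoD, 0.0349 in NeuroD2 and 0.0243 in GFP. Etv5, an ETS factor downstream of FGF signalling, stood at 333 CPM in MyoD, 18.6 in NeuroD2 and 63.3 in GFP, and its relative Etv4 at 24.3 CPM in MyoD, 2.20 in NeuroD2 and 3.21 in GFP. Adora1, an adenosine receptor, stood at 162 CPM in MyoD, 1.08 in NeuroD2 and 4.94 in GFP. Apobec2, a muscle-enriched deaminase family member, stood at 110.3 CPM in MyoD, 1.43 in NeuroD2 and 0.657 in GFP, and Hspb2, a small heat shock protein of muscle, at 62.7 CPM in MyoD, 0.105 in NeuroD2 and 1.92 in GFP. Mrln, the calcium pump micropeptide myoregulin, stood at 17.6 CPM in MyoD with 0 counts in NeuroD2.

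On the NeuroD2 side, Crabp1, a retinoic acid binding protein, stood at 3.69 CPM in MyoD, 403 in NeuroD2 and 31.6 in GFP, and Cyp26b1, a retinoic acid degrading enzyme, at 7.20 CPM with 0 counts in MyoD. Receptors for neurotrophic factors were among these genes, with Ret at 1.31 CPM in MyoD, 97.4 in NeuroD2 and 1.24 in GFP and Ntrk3 at 0.653 CPM in MyoD, 16.5 in NeuroD2 and 5.11 in GFP. The transcription factors Sim1 and Shox2 stood at 0.614 CPM in MyoD, 86.6 in NeuroD2 and 0.292 in GFP, and at 0.192 CPM in MyoD, 39.5 in NeuroD2 and 0.0973 in GFP. Rgs4, a regulator of G protein signalling, stood at 1.15 CPM in MyoD, 148 in NeuroD2 and 0.316 in GFP, and Sstr2, a somatostatin receptor, at 0.269 CPM in MyoD, 26.8 in NeuroD2 and 0.122 in GFP.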
